A study of Mus musculus with 12 samples.

Results

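The genes described here serve MHC class I antigen presentation. They are 8 of the 27179 genes listed in the count tables, namely the heavy chain genes H2-Q4, H2-K1, H2-D1 and H2-T23, the light chain gene B2m, and the peptide loading genes Tap1, Tap2 and Tapbp. They were chosen by the MG132 response: H2-Q4 rose with MG132 in somas and did not meet the same threshold in neurites, and the other 7 genes belong to the same pathway. All 8 passed the filter on low counts, as did 14185 of the 27179 genes.

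RNA was sequenced from mouse hippocampal cultures in Transwell inserts, where cell bodies (somas) stay above a porous membrane and axons and dendrites (neurites) grow through it. The neurons came from newborn mice, labelled C57BL/6 while the methods also name FVB, with no transgene or deletion named, and were used at 17 or 18 days in culture. The 4 groups had 3 libraries each: Ctrl somas and Ctrl neurites, from cultures given the solvent DMSO, and MG132 somas and MG132 neurites, from cultures given the proteasome inhibitor MG132 at 10 μM for 7 h. The libraries held 4247610 to 22166347 counted reads, with the fewest in MG132 somas replicate 2 and the most in MG132 neurites replicate 2.

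Class I molecules show peptides from inside the cell at its surface. The proteasome cuts cytosolic proteins, the TAP1 and TAP2 transporter carries the peptides into the endoplasmic reticulum, and tapasin (Tapbp) holds an empty heavy chain beside the transporter until a peptide binds. The heavy chain leaves for the surface paired with β2-microglobulin (B2m). H2-K1 and H2-D1 encode the classical heavy chains, H2-Q4 and H2-T23 encode non-classical ones, and in the brain class I molecules are known for roles in synapse development as well as in immune recognition.

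Of the 8 genes, 7 lie within 2110 kb of mouse chromosome 17 (GRCm38.p6), and B2m lies on chromosome 2, at 122147687 to 122153082. H2-Q4 (Entrez 15015) spans 35379617 to 35384674 on the plus strand of chromosome 17, and starts 112 kb beyond the end of H2-D1. Class I promoters carry a conserved block of short elements just before the start site, the κB site of NF-κB, an interferon-stimulated response element (ISRE), an X2 box of the CRE type and a Y box. These stretches are shown because H2-Q4 differed from H2-K1 and H2-D1 in the counts, so that the reader can compare the same block in each gene. The letters come from RefSeq promoters of GRCm38.p6, 5′ to 3′ on the gene's strand, and capitals mark, in order, the κB, ISRE-type, X2-type and Y box letters found by search on both strands, with B2m holding no κB match. The H2-Q4 stretch is chr17:35379436-35379574, H2-K1 is chr17:34000351-34000465 on the minus strand, H2-D1 is chr17:35262916-35263053 and B2m is chr2:122147542-122147646.
H2-Q4: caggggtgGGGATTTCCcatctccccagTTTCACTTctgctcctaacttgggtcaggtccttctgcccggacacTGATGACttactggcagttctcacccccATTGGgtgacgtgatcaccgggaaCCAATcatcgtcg
H2-K1: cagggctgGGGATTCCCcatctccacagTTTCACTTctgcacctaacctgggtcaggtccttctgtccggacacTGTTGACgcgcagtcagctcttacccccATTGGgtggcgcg
H2-D1: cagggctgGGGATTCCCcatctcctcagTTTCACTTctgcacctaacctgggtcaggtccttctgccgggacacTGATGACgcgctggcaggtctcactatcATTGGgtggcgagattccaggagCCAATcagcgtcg
B2m: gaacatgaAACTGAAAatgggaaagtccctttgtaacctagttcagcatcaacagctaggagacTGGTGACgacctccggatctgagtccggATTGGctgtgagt

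The searched letters were GGGATTNCC for κB, TTTCNNTT for ISRE-type, TGNTGAC for X2-type and CCAAT for the Y box, chosen after the counts had been seen. Among 27018 RefSeq promoters, 0.855% held the κB letters within 250 bases before the start site, 21.6% the ISRE-type, 11.7% the X2-type and 34.5% the Y box letters. H2-Q4, H2-K1 and H2-D1 held all 4, in the same order. H2-T23 and B2m held all but GGGATTNCC, the only κB letters searched. Other forms of a κB site were not searched in any gene. Tapbp held the Y box letters alone, and Tap2 was not searched here. Tap1 held the Y box letters and also GAANNTTC, a pair of heat shock element units that 6.78% of promoters held and that H2-Q4, H2-K1, H2-D1, H2-T23, B2m and Tapbp did not hold. A match describes letters and is not evidence of binding, and the lack of a match is not evidence that a site is absent.

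Levels between genes were set side by side as CPM, read counts scaled to a common library size with TMM factors, per kilobase of annotated exon. B2m was the most abundant of the 8 in each group, with 364 ± 87.8 in Ctrl somas, 467 ± 216 in Ctrl neurites, 330 ± 129 in MG132 somas and 400 ± 152 in MG132 neurites (CPM per kb, SD, n = 3). H2-K1 and H2-D1 followed, at 40.2 ± 8.14 and 30.8 ± 8 in Ctrl somas, and their libraries overlapped in all 4 groups. H2-Q4 came after Tapbp in Ctrl somas with 4.23 ± 1.28, where Tapbp had 12.3 ± 2.13, and these libraries did not overlap. In Ctrl neurites H2-Q4 came after H2-K1, with 22.8 ± 4.6, where its libraries overlapped those of H2-K1 at 32.3 ± 8.73 and stood above those of Tapbp at 9.08 ± 3.13. Tap1, Tap2 and H2-T23 held the last 3 places in every group, with means from 0.813 to 2.77 CPM per kb.

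H2-Q4 had 7.25, 13.6 and 12 CPM in the 3 Ctrl somas libraries and 29, 41 and 47.8 CPM in the 3 MG132 somas libraries, in the order of replicates 1 to 3. In Ctrl neurites it had 47.1, 59.6 and 71 CPM, and in MG132 neurites 48.8, 79.8 and 77.6 CPM. Ctrl somas were thus the group with low H2-Q4, all 3 below every other library, while the Ctrl and MG132 neurites overlapped. The log2 fold change with MG132 was 1.85 ± 0.29 (SE) in somas, just past the threshold of 1.7, and 0.22 ± 0.27 in neurites. It was under that threshold without Ctrl somas replicate 1, at 1.61, and without MG132 somas replicate 3, at 1.69. The gene nearest outside the threshold in somas was Tap1 at 0.61 ± 0.37, followed by H2-D1 at 0.54 ± 0.27. The difference of the 2 H2-Q4 responses, neurites minus somas, was -1.63 ± 0.39 on the log2 scale. These MG132 contrasts chose the gene, so they are given as a description without a test.

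**Figure D1:**
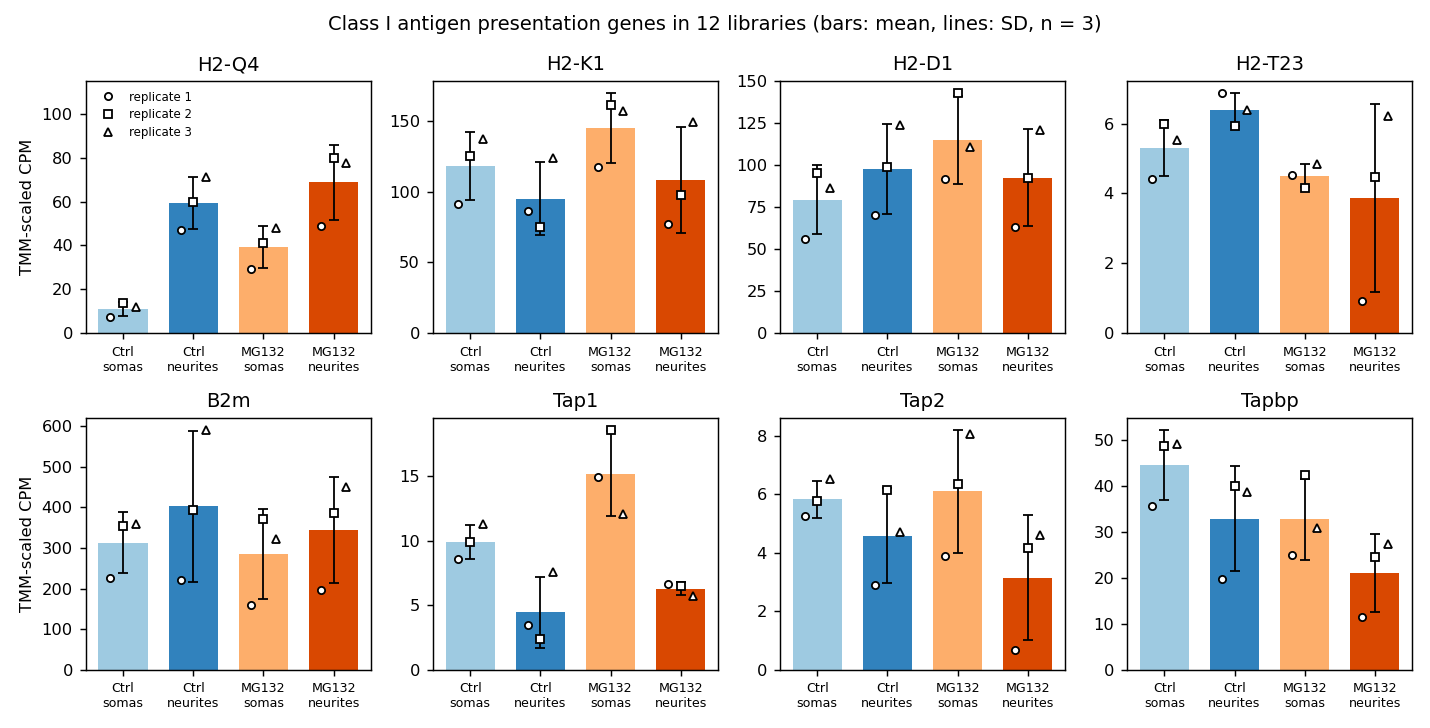
TMM-scaled CPM (y axis, a separate scale per gene, from 0) for the 8 class I genes in the 4 groups, with bars for the mean, lines for the SD and symbols for replicates 1 to 3. H2-Q4 in Ctrl somas (7.25 to 13.6) sits below its other 3 groups, while B2m overlaps in all 4 groups.

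In neurites against somas, H2-Q4 was higher by 2.44 ± 0.29 on the log2 scale (SE) in Ctrl cultures, or 5.44-fold, and by 0.81 ± 0.27 in MG132 cultures. It was higher in 3 of 3 pairs of same-numbered libraries in each. The first of these comparisons shares its Ctrl somas libraries, and the second its MG132 somas libraries, with the contrast that chose H2-Q4, so neither was tested. Scaling mattered here: on total counts, without TMM factors, the median log2 ratio of all genes between neurites and somas moved from -0.04 to -0.70 in Ctrl and from -0.08 to -0.86 in MG132 cultures, and the H2-Q4 values became 1.81 and 0.05.

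A ratio within a library does not depend on that scaling. H2-Q4 made up 5.02%, 6.19% and 5.45% of the summed H2-Q4, H2-K1 and H2-D1 reads per kb in the Ctrl somas libraries. In MG132 somas the share was 12.9%, 12.5% and 16%. In Ctrl neurites it was 24.2%, 26.5% and 23.3%, and in MG132 neurites 27%, 30.8% and 23.4%. The 3 levels, Ctrl somas, MG132 somas and the neurites of either treatment, did not overlap, and the 2 neurites groups overlapped. As the rule chose H2-Q4 for this difference between somas libraries, the shares describe it and add no support. Of the 75-base windows of the H2-Q4 transcript, 7.22% are found in other genes' transcripts too, against 1.33% for H2-K1 and 6.9% for H2-D1, so a part of these reads could not be assigned to 1 gene.

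**Figure D2:**
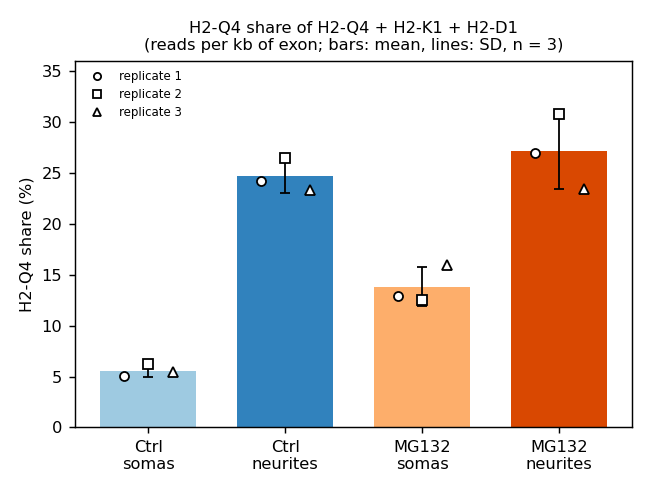
Share of H2-Q4 in the summed reads per kb of exon of H2-Q4, H2-K1 and H2-D1 (y axis, percent, from 0) in the 4 groups, with bars for the mean, lines for the SD and symbols for replicates. Ctrl somas lie at 5.02% to 6.19%, MG132 somas at 12.5% to 16% and both neurites groups at 23.3% to 30.8%.

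The classical heavy chain H2-K1 had 91.2, 125 and 137 CPM in Ctrl somas and 117, 161 and 157 CPM in MG132 somas. Its Ctrl neurites libraries had 86.3, 74.7 and 124 CPM, and its MG132 neurites libraries 76.9, 97.7 and 149 CPM. Libraries of all 4 groups overlapped, and the log2 fold change with MG132 was 0.30 ± 0.26 (SE) in somas and 0.19 ± 0.26 in neurites. H2-K1 was lower in neurites in 3 of 3 pairs in both treatments, by -0.31 ± 0.26 in Ctrl and -0.42 ± 0.26 in MG132 cultures, with adjusted p of 0.479 and 0.287 (edgeR). On total counts these became -0.96 and -1.25, with adjusted p of 0.0311 and 0.00459, below the fold threshold, and with the replicate block the MG132 value had an adjusted p of 0.0365.

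H2-D1, the other classical heavy chain, had 56.1, 95.4 and 86.7 CPM in Ctrl somas and 91.9, 143 and 111 CPM in MG132 somas. It had 70.6, 99 and 124 CPM in Ctrl neurites and 63.4, 92.5 and 121 CPM in MG132 neurites. Each MG132 somas library was above its same-numbered Ctrl library, and each MG132 neurites library was below, by small amounts, with log2 fold changes of 0.54 ± 0.27 and -0.08 ± 0.27 (SE). Between neurites and somas H2-D1 differed by 0.31 ± 0.27 in Ctrl and -0.32 ± 0.27 in MG132 cultures, with adjusted p of 0.523 and 0.472 (edgeR), and on total counts they became -0.31 and -1.11, with adjusted p of 0.51 and 0.014.

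B2m, whose product pairs with every class I heavy chain, had 226, 353 and 360 CPM in Ctrl somas, 220, 394 and 591 in Ctrl neurites, 159, 370 and 323 in MG132 somas, and 197, 385 and 450 in MG132 neurites. Replicate 1 was the lowest library of each group, and the spread between replicates exceeded the difference between groups. The log2 fold change with MG132 was -0.14 ± 0.38 (SE) in somas and -0.22 ± 0.38 in neurites. In neurites against somas it was 0.36 ± 0.38 in Ctrl and 0.28 ± 0.38 in MG132 cultures, with adjusted p of 0.595 and 0.665 (edgeR), and both turned negative on total counts, at -0.23 and -0.49.

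H2-T23, which encodes the non-classical molecule Qa-1, was near 5 CPM, with 4.42, 5.99 and 5.52 in Ctrl somas and 6.88, 5.93 and 6.39 in Ctrl neurites. With MG132 it had 4.53, 4.16 and 4.84 CPM in somas and 0.913, 4.48 and 6.21 CPM in neurites, where the low library rests on 4 reads. Its log2 fold change was -0.23 ± 0.50 (SE) in somas and -0.69 ± 0.51 in neurites. In neurites against somas the values were 0.27 ± 0.50 in Ctrl and -0.20 ± 0.51 in MG132 cultures, with adjusted p of 0.792 and 0.835 (edgeR), and on total counts -0.40 and -0.99.

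The transporter gene Tap1 had 8.56, 9.87 and 11.3 CPM in Ctrl somas and 14.9, 18.6 and 12.1 CPM in MG132 somas, so that these groups did not overlap. Ctrl neurites had 3.44, 2.35 and 7.57 CPM, and MG132 neurites 6.62, 6.51 and 5.68 CPM. The log2 fold change with MG132 was 0.61 ± 0.37 (SE) in somas and 0.50 ± 0.40 in neurites. Tap1 had lower values in neurites than in somas in 3 of 3 pairs of either treatment, by -1.15 ± 0.40 in Ctrl, with adjusted p of 0.0641, and by -1.27 ± 0.38 in MG132 cultures, with adjusted p of 0.0331 (edgeR). Neither met the threshold of an adjusted p under 0.01 and a log2 fold change above 1.7. On total counts they did, at -1.80 (adjusted p of 0.00998) and -2.02 (adjusted p of 0.00253), and without Ctrl neurites replicate 3 the Ctrl value did as well, at -1.81 (adjusted p of 0.00794).

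Tap2, the partner of Tap1 in the transporter, had 5.25, 5.77 and 6.51 CPM in Ctrl somas, 2.91, 6.15 and 4.71 in Ctrl neurites, 3.88, 6.35 and 8.08 in MG132 somas, and 0.684, 4.16 and 4.62 in MG132 neurites, the low library resting on 3 reads. Its log2 fold change with MG132 was 0.07 ± 0.53 (SE) in somas and -0.51 ± 0.56 in neurites. Tapbp had 35.7, 48.8 and 49.3 CPM in Ctrl somas and 25.1, 42.4 and 30.8 CPM in MG132 somas. Its neurites had 19.8, 40.1 and 38.8 CPM in Ctrl and 11.4, 24.6 and 27.3 CPM in MG132 cultures. Tapbp was lower with MG132 in 3 of 3 pairs of somas and of neurites, by -0.45 ± 0.32 and -0.64 ± 0.33 on the log2 scale (SE), and the groups overlapped. In neurites against somas, Tap2 gave adjusted p of 0.765 in Ctrl and 0.287 in MG132 cultures, and Tapbp 0.444 and 0.226 (edgeR). The log2 values were -0.32 ± 0.55 and -0.91 ± 0.55 for Tap2 and -0.43 ± 0.33 and -0.61 ± 0.33 for Tapbp. On total counts they became -0.93 and -1.65 for Tap2 and -1.03 and -1.37 for Tapbp, still within the fold threshold, and the MG132 value of Tapbp had an adjusted p of 0.0107 there and 0.0209 with the replicate block.

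**Figure D3:**
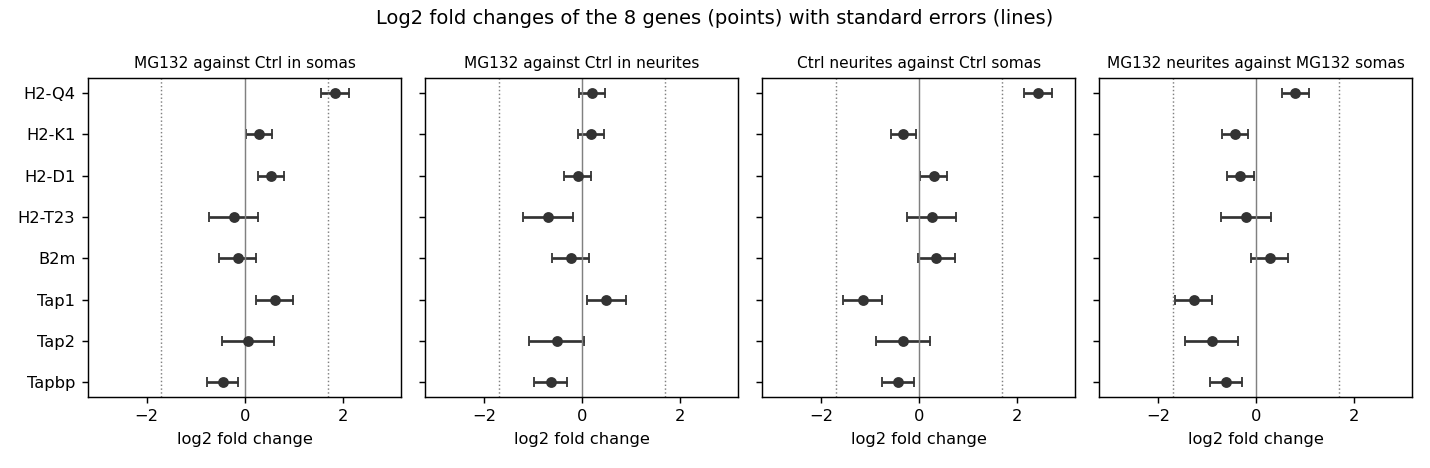
Log2 fold changes (x axis, points) with standard errors (lines) of the 8 class I genes in 4 comparisons from 1 edgeR fit over 12 libraries, with dotted lines at the threshold of 1.7. H2-Q4 lies past it in somas with MG132 (1.85) and in Ctrl neurites against Ctrl somas (2.44), and the other 7 genes lie inside it in all 4 panels.

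Counted by the threshold, 0 of the 7 genes other than H2-Q4 were called between neurites and somas, in Ctrl or in MG132 cultures, by edgeR and also by DESeq2. Over all 14185 genes tested, 2.12% were called higher and 0.338% lower in Ctrl neurites than in Ctrl somas, and 2.04% higher and 0.508% lower in MG132 neurites than in MG132 somas. At an unadjusted p under 0.05, 1 of the 7 genes passed in each comparison, Tap1 both times, beside 27.6% of all genes in Ctrl and 30.9% in MG132 cultures. The groups did not overlap for 2 of the 8 genes, H2-Q4 and Tap1, in either comparison, beside 33.7% of all genes in Ctrl and 36.8% in MG132 cultures. With MG132, 1 of the 8 was called higher in somas, H2-Q4 by the rule, beside 2.11% of all genes called higher and 2.43% lower. In neurites 0 of 8 were called, beside 2.44% called higher and 2.19% lower, and the 2 groups overlapped for all 8, while 40.9% of all genes did not overlap. In somas 2 of 8 did not overlap, H2-Q4 and Tap1, beside 45.9% of all genes. The median log2 fold change of the 8 genes was 0.18 in somas, where that of all genes was -0.07, and -0.15 in neurites, where it was -0.16.

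The rest of the pathway was read from 10 lists with 135 genes, of which 133 were listed in the count tables, some with no read in any library, and 101 passed the filter. With MG132, 7 of the 101 were called higher and 2 lower in somas, beside 2.11% and 2.43% of all genes. In neurites 6 were called higher and 1 lower, beside 2.44% and 2.19%. Of those called higher, 6 in somas and 5 in neurites would pass the filter on the Ctrl libraries alone, all but Cxcl2. With only an adjusted p below 0.05 required, whatever the fold, the counts were 25 higher and 6 lower in somas, where 15.5% and 11.9% of all genes passed, and 21 higher and 11 lower in neurites, where 14.7% and 12.3% passed. The higher counts hold Cxcl2 and Il6 in both fractions and H2-Q7 in somas, genes with 0 to 7 reads per Ctrl library. These genes were tested only because they were high with MG132, so their place in the counts supports nothing. With the replicate number as a block, the genes called lower in neurites rose from 1 to 6, with Mr1, Ifit3, Ifit3b, Traf1 and Pirb beside Ifit2, and those called higher went from 6 to 8.

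Among NF-κB target genes, with Cxcl2 set aside, Cxcl1 and Ccl2 were called higher in both fractions. Of 14 tested, 3 were called higher and 1 lower in somas, beside 2.11% and 2.43% of all genes. In neurites 4 were called higher and 0 lower, beside 2.44% and 2.19%. Cxcl2 is among those called higher each time. The medians of the 14 log2 values were 1.2 in somas and 1.23 in neurites, beside -0.07 and -0.16 for all genes. They include Cxcl2 and Il6. Both were tested only because they were high with MG132, and medians without them were not computed. No rise of the list as a whole is therefore read from these counts and medians. The chemokine gene Cxcl1, the most abundant of the list over the 12 libraries together though in neither Ctrl group, had 0.345, 2.22 and 3.53 CPM in Ctrl somas and 76.3, 119 and 404 CPM in MG132 somas. In neurites it went from 0, 0.447 and 3.87 CPM to 108, 201 and 501 CPM, and every MG132 library was above every Ctrl one. Its log2 fold change was 6.71 ± 0.95 (SE) in somas and 7.50 ± 1.02 in neurites, with adjusted p of 1.57e-04 and 9.02e-05 (edgeR). Ccl2, also a chemokine gene, rose by 6.73 ± 0.78 in somas and 5.28 ± 0.72 in neurites. Cxcl2, a further one, had 7, 3 and 0 reads in Ctrl somas and 0, 0 and 7 reads in Ctrl neurites, or at most 1.18 CPM, and 27.4, 50.2 and 143 CPM in MG132 somas and 24.4, 51.3 and 108 CPM in MG132 neurites. It passed the filter on low counts only through the MG132 libraries, so it had to differ, and its calls support nothing. The adhesion gene Icam1 was called in neurites, at 1.74 ± 0.35 with adjusted p of 0.00211 (1.60 on total counts, under the fold threshold), and had 1.20 ± 0.34 in somas with adjusted p of 0.0155. Traf1, a signalling adaptor, fell in somas by -3.12 ± 0.70, with adjusted p of 0.00439. In neurites its value was -2.55 ± 0.72, with adjusted p of 0.0157, or 0.00594 with the replicate block.

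Interferon-stimulated genes were split. Of 27 tested, 4 were called higher and 0 lower in somas, beside 2.11% and 2.43% of all genes. In neurites 2 were called higher and 1 lower, beside 2.44% and 2.19%. The median log2 fold change of the list was -0.09 in somas and -0.57 in neurites. Cxcl10, a chemokine and the most abundant of the list over the 12 libraries together though in neither Ctrl group, rose from 1.66, 3.33 and 8.16 CPM to 101, 184 and 319 CPM in somas, and from 2.38, 3.24 and 2.86 CPM to 97.2, 205 and 265 CPM in neurites. Its log2 fold change was 5.56 ± 0.57 and 6.02 ± 0.61 (SE), with adjusted p of 1.44e-05 and 8.80e-06 (edgeR). Mx2, an antiviral GTPase, rose by 3.51 ± 0.52 in somas and 3.41 ± 0.56 in neurites. The ubiquitin-like modifier Isg15 rose by 3.15 ± 0.76 in somas and the antiviral enzyme gene Rsad2 by 2.80 ± 0.71, with adjusted p of 0.00683 and 0.00946. In neurites these 2 genes had adjusted p of 0.0266 and 0.0137, and were called with the replicate block, at 2.16 with 0.00361 and 2.35 with 8.69e-04. Ifit2, a sensor of foreign RNA, fell in neurites by -1.71 ± 0.35 with adjusted p of 0.00205, from 40.7, 56.6 and 66.8 CPM to 11.4, 16.2 and 22.5 CPM. In somas it went from 26, 34.2 and 24.9 CPM to 5.92, 16.5 and 14.2 CPM, lower at an adjusted p under 0.05 (edgeR) but not called. With only the 6 libraries compared, and without Ctrl neurites replicate 2 or 3 or MG132 neurites replicate 1 or 2, 0 pathway genes were called lower in neurites, Ifit2 included. Ifit3 and Ifit3b had -2.12 ± 0.60 and -2.85 ± 0.75 in neurites with adjusted p of 0.0167 and 0.0111, and were called with the block, at 2.68e-04 and 4.37e-04. Gbp3, a guanylate-binding protein gene, was called higher in neurites than in somas in both treatments, by 2.38 ± 0.34 in Ctrl and 1.94 ± 0.34 in MG132 cultures, the latter 1.22 on total counts and then no call.

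**Figure D4:**
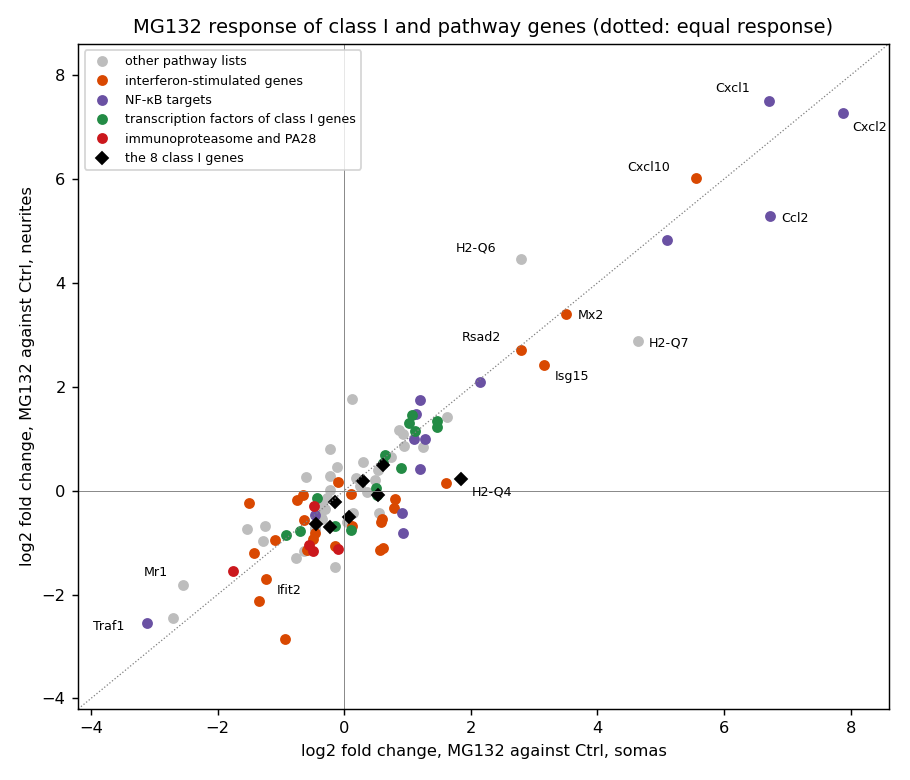
Log2 fold change with MG132 in somas (x axis) and neurites (y axis) of the 8 class I genes (black diamonds) and the pathway genes tested (dots, coloured by list), with a dotted line where both responses are equal. Cxcl1, Ccl2 and Cxcl10 lie above 5 on both axes and H2-Q4 lies at 1.85 and 0.22, while the places of Cxcl2, H2-Q6 and H2-Q7, with few Ctrl reads, depend on the prior count.

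The immunoproteasome subunits Psmb8, Psmb9 and Psmb10 and the proteasome activator genes Psme1 and Psme2 shape peptides for class I molecules. None of the 5 was called with MG132 by edgeR, and 0 of 5 passed an adjusted p under 0.05. All 5 had negative log2 fold changes, from -1.76 ± 0.94 (Psmb9) to -0.11 ± 0.61 (Psme2) in somas and from -1.54 ± 0.94 (Psmb9) to -0.30 ± 0.33 (Psme1) in neurites (SE). Psmb8 had 6.08, 4.1 and 10 CPM in Ctrl somas, 5.18, 1.39 and 7.13 in MG132 somas, 16.1, 13.1 and 24.7 in Ctrl neurites and 4.33, 7.14 and 12.4 in MG132 neurites. The 2 neurites groups did not overlap for Psmb8, and its neurites value of -1.17 ± 0.52 had an adjusted p of 0.109, or 0.0203 with the replicate block. In neurites against somas all 5 had positive values in both treatments, with medians of 1.28 in Ctrl and 0.74 in MG132 cultures. The groups did not overlap for 4 of 5 in Ctrl and 1 of 5 in MG132 cultures, beside 33.7% and 36.8% of all genes. At an adjusted p under 0.05, 0 of 5 passed in Ctrl cultures. Psme1, the most abundant of the 5, was higher in MG132 neurites than in MG132 somas by 1.18 ± 0.34 with adjusted p of 0.0257 (edgeR), below the fold threshold.

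Among genes for peptide trimming and loading, 0 of 8 were called with MG132 in somas or neurites, and 6 of 8 had negative values in somas, with a median log2 fold change of -0.27, and 3 of 8 in neurites, with a median of 0.23. At an adjusted p under 0.05, 2 were higher and 0 lower in somas, beside 15.5% and 11.9% of all genes. In neurites 2 were higher and 1 lower, beside 14.7% and 12.3%. Canx encodes the chaperone calnexin, which folds new heavy chains, and was the most abundant of the list. It had 632, 742 and 781 CPM in Ctrl somas and 521, 667 and 651 in MG132 somas, and 923, 1030 and 1310 in Ctrl neurites and 1720, 2000 and 1940 in MG132 neurites. The neurites groups did not overlap, with a log2 fold change of 0.80 ± 0.19 (SE) and adjusted p of 0.00542, and MG132 neurites exceeded MG132 somas by 1.62 ± 0.19 with adjusted p of 3.90e-05, just under the fold threshold. On total counts these 2 values were 0.64 and 0.85, with adjusted p of 0.18 and 0.0463. Tpp2, a cytosolic peptidase named like Psmb8, the Y box and NF-κB factors, Ifngr1 and Herpud1 after its values were seen, had 0.86 ± 0.21 in somas and 1.17 ± 0.21 in neurites, with adjusted p of 0.00646 and 8.35e-04, and Uggt1, which checks glycoprotein folding, had 0.49 ± 0.15 in somas with 0.0285. Lnpep, an endosomal aminopeptidase, was the lower one, at -0.73 ± 0.22 in neurites with adjusted p of 0.0247. It was lower in neurites than in somas as well, by -0.74 ± 0.22 in Ctrl cultures with adjusted p of 0.034, and in MG132 cultures with 0.0061 (edgeR).

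Of 15 transcription factors of class I genes, 0 were called in either fraction. At an adjusted p under 0.05, 5 were higher in somas, beside 15.5% of all genes, and again in neurites, beside 14.7%. In neurites 1, the interferon regulatory factor Irf2, was lower at -0.79 ± 0.26 with adjusted p of 0.0348 (edgeR), beside 12.3% of all genes. The 5 were the Y box factors Nfya and Nfyb, the CRE factor Creb1, and the NF-κB subunits Nfkb1 and Rela, with log2 fold changes from 0.65 ± 0.15 (Creb1) to 1.46 (Nfya and Rela, ± 0.24 and 0.30) in somas and from 0.68 ± 0.15 (Creb1) to 1.35 ± 0.24 (Nfya) in neurites (SE). Nfya, for one, had 19.8, 30.6 and 26.5 CPM in Ctrl somas and 59.9, 78.3 and 73 in MG132 somas. Nlrc5, the coactivator of class I genes, had 6.08, 7.98 and 3.53 CPM in Ctrl somas and 7.03, 15.3 and 10.7 in MG132 somas, a log2 difference of 0.89 ± 0.45 with adjusted p of 0.161. Of the interferon list, 7 of 11 genes passed the filter and 0 were called. The kinase gene Jak1 had 0.74 ± 0.17 in somas and 0.65 ± 0.17 in neurites, with adjusted p of 0.0044 and 0.0094, and the receptor gene Ifngr1 had -1.28 ± 0.28 and -0.96 ± 0.29, with 0.00372 and 0.0217.

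Of 26 other class I and class I-like heavy chain genes, 24 were listed in the count tables and 9 passed the filter. Mr1, which presents vitamin metabolites to T cells, was called lower in somas, from 26.6, 21.1 and 17.3 CPM to 3.61, 2.58 and 4.67 CPM, at -2.54 ± 0.50 (SE) with adjusted p of 0.00174. In neurites it had -1.82 ± 0.51 with adjusted p of 0.0155, or 0.00236 with the replicate block. Hfe, the iron-sensing class I-like gene and the most abundant of the list over the 12 libraries together, though below Mr1 in Ctrl somas and H2-T22 in Ctrl neurites, had -0.37 ± 0.30 in somas and -0.26 ± 0.31 in neurites. H2-Q6 and H2-Q7, chosen for naming after their values were seen, follow H2-Q4 on the chromosome, H2-Q6 starting 40.2 kb after the end of H2-Q4. H2-Q7 had 2, 1 and 0 reads in Ctrl somas and 19, 14 and 72 in MG132 somas, and 0, 1 and 2 in Ctrl neurites and 0, 30 and 13 in MG132 neurites. H2-Q6 had 7, 0 and 9 reads in Ctrl somas and 44, 13 and 90 in MG132 somas, and 0, 0 and 1 in Ctrl neurites and 0, 39 and 14 in MG132 neurites. With so few reads in Ctrl libraries no fold or test is given, although H2-Q7 was among the pathway genes counted as higher in somas at an adjusted p under 0.05. Of the 75-base windows, 19.1% of H2-Q7 and 17.9% of H2-Q6 are shared with other genes. H2-T22 was higher in Ctrl neurites than in Ctrl somas by 2.10 ± 0.58 with adjusted p of 0.023, which became 0.00171, a call, with the replicate block.

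Of 12 genes for endoplasmic reticulum-associated degradation, which clears unassembled heavy chains, 0 were called. At an adjusted p under 0.05, 5 were higher in somas and 3 in neurites, beside 15.5% and 14.7% of all genes. Sel1l, the most abundant over the 12 libraries together, had 0.35 ± 0.17 (SE) in somas and -0.02 ± 0.17 in neurites. Herpud1, which helps assemble that machinery, had 1.62 ± 0.27 and 1.41 ± 0.28. In MG132 neurites against MG132 somas, 5 of the 12 were lower at an adjusted p under 0.05 (edgeR), beside 6.35% of all genes. These were Syvn1, Sel1l, Edem1, Herpud1 and Rnf139, and the median of the 12 was -0.64, beside -0.08 for all genes. In Ctrl cultures 2 were lower, Syvn1 and Rnf139, beside 4.65%. MHC class II genes, which present to helper T cells, were low, with 3 of 9 tested, 0 called and H2-Ab1, the most abundant over the 12 libraries together, at 1.78 ± 0.649 CPM in Ctrl somas (SD, n = 3). Among receptors of class I molecules 1 of 7 passed the filter, Pirb, with -2.71 ± 0.79 in somas and -2.46 ± 0.80 in neurites and adjusted p of 0.0199 and 0.0332, and both were called with the replicate block, at 0.00177 and 0.00261.

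Between neurites and somas, 1 of the 101 pathway genes was called higher and 0 lower in Ctrl cultures, beside 2.12% and 0.338% of all genes. In MG132 cultures it was again 1 and 0, beside 2.04% and 0.508%, and the gene was Gbp3 each time. At an adjusted p under 0.05 the counts were 3 higher and 5 lower in Ctrl cultures, where 10.2% and 4.65% of all genes passed, and 5 higher and 6 lower in MG132 cultures, where 11.4% and 6.35% passed. For the difference of the MG132 response between neurites and somas, 0% of all genes and 0 of the 101 pathway genes passed an adjusted p under 0.01 in edgeR. At an unadjusted p under 0.05, 3 of the 101 passed, Canx, Calr and Os9, beside 7.05% of all genes, so nothing is read from this count. With the replicate block 1 of the 101 passed, Canx at 1.04 with adjusted p of 0.0089, and DESeq2 also called 1, and over all genes the block gave 21 and DESeq2 27.

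Marker genes were read because class I levels differ between cell types. These are bulk samples, so fewer cells of a type and less RNA per cell cannot be told apart. All 11 neuron markers had reads, led by Camk2a with 778, 331 and 397 CPM in Ctrl somas and 2240, 604 and 978 CPM in Ctrl neurites. Of the 11, 9 had lower values in Ctrl neurites than in Ctrl somas, with a median log2 difference of -0.34, and 0 were called. Glial RNA was present as well. The 10 astrocyte markers summed to 6010, 6640 and 5450 CPM in Ctrl somas and 21800, 26600 and 21300 CPM in Ctrl neurites, and to 2950, 3630 and 2790 CPM in MG132 somas and 12600, 20200 and 9950 CPM in MG132 neurites. Gfap, the astrocyte filament gene and the most abundant marker, was higher in neurites by 3.18 ± 0.36 in Ctrl and 3.14 ± 0.36 in MG132 cultures (log2, SE), with adjusted p of 2.28e-05 and 3.04e-05 (edgeR). S100b was higher by 2.48 ± 0.22 and 3.03 ± 0.23. The list as a whole was split, with 5 of 10 markers higher and 5 lower in Ctrl neurites and a median of -0.01, and Gja1 was lower by -1.08 ± 0.23 with adjusted p of 0.00512 and Atp1b2 by -0.70 ± 0.18 with 0.0174. Gfap made up most of the summed rise, with a mean of 1970 CPM in Ctrl somas and 17800 in Ctrl neurites. Slc1a2, with means of 1430 and 2880 CPM, and S100b, with 73.8 and 411 CPM, added to it. The part of astrocyte RNA in the H2-Q4 values was not tested. With MG132 in somas, 0 of the 10 astrocyte markers had a positive value and Aqp4, the water channel gene, fell by -2.36 ± 0.16.

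The 14 microglia markers, the immune cells of the brain, summed to 1320, 1740 and 1540 CPM in Ctrl somas and 525, 931 and 563 CPM in MG132 somas. In neurites they went from 1190, 1280 and 2050 CPM to 334, 573 and 609 CPM. All 14 had negative log2 fold changes with MG132 in both fractions, with medians of -1.09 and -1.44, beside -0.07 and -0.16 for all genes. Of the 14, 2 were called lower in each fraction, beside 2.43% of all genes in somas and 2.19% in neurites. These were Cx3cr1, by -5.77 ± 0.43 and -5.88 ± 0.43, and P2ry12, by -2.57 ± 0.43 and -3.55 ± 0.47 (SE). With the replicate block Aif1 was called as well, at -1.71 in somas and -2.69 in neurites, and at 1.97 in Ctrl neurites against Ctrl somas. The oligodendrocyte list summed to 3370, 1640 and 6760 CPM in Ctrl somas and 13600, 5230 and 22400 CPM in Ctrl neurites, mostly the myelin gene Mbp, which with the replicate block was called higher in neurites, at 2.95 in Ctrl and 2.83 in MG132 cultures. With MG132 its early-lineage genes Pdgfra and Sox10 fell in both fractions, Pdgfra by -3.67 ± 0.62 and -3.48 ± 0.60 and Sox10 by -2.01 ± 0.40 and -2.42 ± 0.42, while Olig1 and Cspg4 were called in neurites, at -2.14 ± 0.29 and -1.98 ± 0.39, and had -1.60 ± 0.29 and -1.40 ± 0.37 in somas, and the block added Olig2 in neurites at -1.87. Fibroblast genes summed to 513, 517 and 686 CPM in Ctrl somas and 305, 360 and 331 CPM in MG132 somas, led by Fn1, and Col1a1, Col1a2 and Pdgfrb were called lower in somas, by -2.15 ± 0.29, -2.04 ± 0.50 and -3.56 ± 0.60. Pdgfrb was called lower in neurites too, by -2.56 ± 0.61, and Col1a1 was called lower in Ctrl neurites than in Ctrl somas, by -1.91 ± 0.29. The block added Lum, at -3.38 in neurites with adjusted p of 0.0024 and in somas with 0.00224, and Col1a2 in Ctrl neurites against Ctrl somas, at -1.77 (edgeR). Endothelial genes were near absent, at 0.794 to 18.2 CPM in sum, with Flt1 the most abundant, Tie1 at 0 in Ctrl somas, and Cldn5, Cdh5 and Tie1 at 0 in Ctrl neurites.

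**Figure D5:**
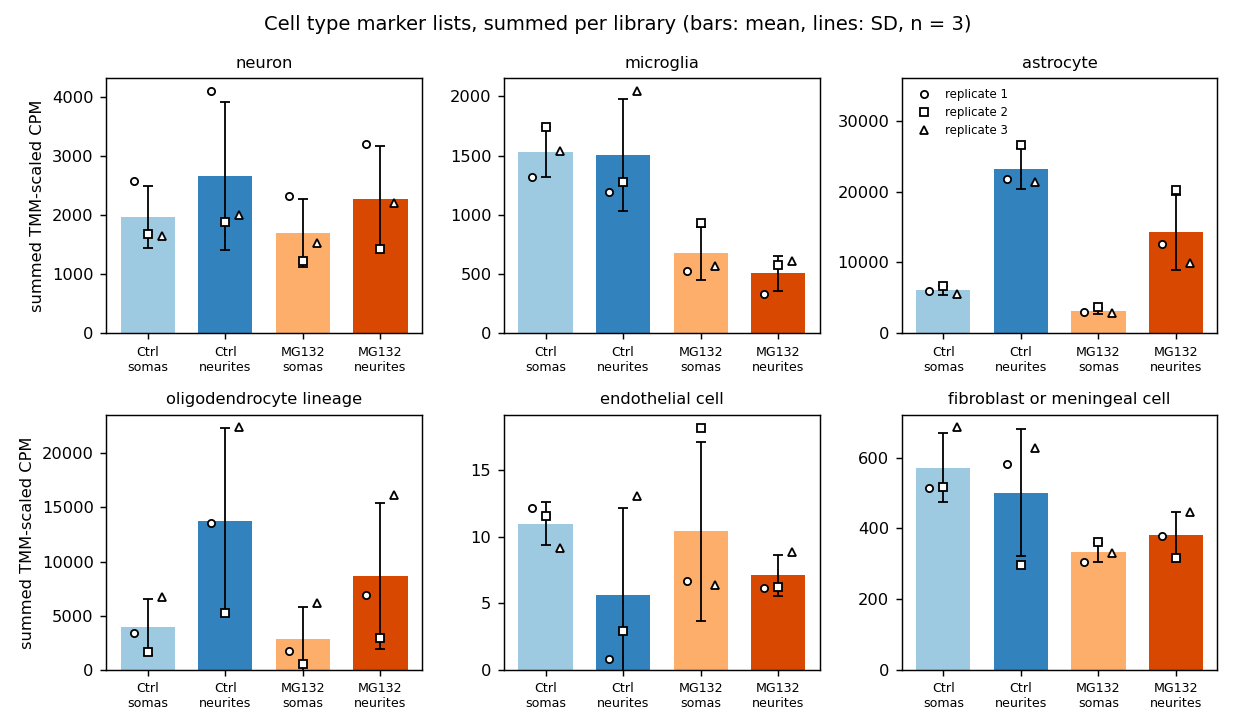
Summed CPM of each cell type marker list (y axis, a separate scale per list, from 0) in the 4 groups, with bars for the mean, lines for the SD and symbols for replicates 1 to 3. Microglia sums fall from 1320 to 1740 in Ctrl somas to 525 to 931 in MG132 somas, and astrocyte sums are higher in neurites, where Gfap makes up most of them, than in somas, while 5 of the 10 astrocyte markers had lower values in Ctrl neurites.

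The replicates differed in the same direction across groups. Replicate 1 was the lowest library in 4 of 4 groups for H2-Q4, H2-D1, B2m, Tap2 and Tapbp, in 3 for H2-K1, in 2 for H2-T23 and in 1 for Tap1. The summed neuron markers were highest in replicate 1 in each group, at 2580, 4110, 2330 and 3200 CPM in the somas and neurites of Ctrl and then of MG132 cultures, where the other libraries lay between 1220 and 2210 CPM. The deposited names give 18 days in culture for replicate 1 and 17 days for replicates 2 and 3, in all 4 groups, while that of MG132 neurites replicate 3 carries another date than the other replicate 3 libraries. The part of culture age and of culture makeup in the class I levels was not tested.

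Patterns over the 12 libraries were compared by Pearson's r of log2 CPM, as a description, since libraries share groups and replicate numbers. Among the 8 genes, r with H2-Q4 ran from -0.41 for Tapbp to 0.49 for H2-D1. The closest pairs were Tap2 with Tapbp at 0.88, H2-T23 with Tap2 at 0.80, H2-K1 with H2-D1 at 0.72 and H2-K1 with Tap1 at 0.71. Among 13621 genes, those most like H2-Q4 were Mafk, a small Maf transcription factor, at 0.989, Hspb8, a small heat shock protein, at 0.986, Mdfic at 0.969, the gene with Entrez 11641 that GENCODE names Akap2 at 0.969, and Rragc, a Rag GTPase, at 0.958. Mafk had 3.52, 6.54 and 5.63 CPM in Ctrl somas, 14.4, 24.4 and 21.1 in MG132 somas, 32, 36 and 41.5 in Ctrl neurites and 28.5, 66.8 and 54.9 in MG132 neurites. Like H2-Q4, it had all 3 Ctrl somas libraries below every other one. Those most like B2m were Trim30a at 0.948, Lamp1, a lysosomal membrane protein, at 0.934, Plxnd1 at 0.919, Steap4 at 0.908 and Tgm2 at 0.907.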

How the data were processed

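The authors deposited raw read counts per gene, without normalization. Their methods and notes name Trimmomatic 0.38.0, STAR on mm10 with single-end reads, featureCounts 2.0.1 with default parameters and DESeq2 2.11.40.7, with polyA capture. The default counts reads without regard to strand, so reads of a gene and of an antisense partner cannot be told apart. Nothing in the labels ties replicates to separate animals, so p-values measure the spread between libraries.

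Entrez identifiers were matched to RefSeq (GRCm38.p6), and 25275 of 27179 genes had a symbol. Genes passed edgeR's filterByExpr by group. Counts were fitted with edgeR 4.0.16 (R 4.3.3, TMM factors, quasi-likelihood, 4 group means, 12 libraries), and p-values were adjusted by the Benjamini-Hochberg method over 14185 genes. Genes were called at an adjusted p below 0.01 with an absolute log2 fold change over 1.7, or for the interaction the adjusted p alone. Standard errors are the log2 fold change over the root of F. Log2 CPM used a prior count of 2. The fit was tested on simulated data.

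The members, lists and motifs were chosen with earlier results of these data known. H2-Q4 was given no test, also between neurites and somas where one had been planned, because those libraries chose it. Of each list, at most 4 called genes per comparison and the gene most abundant over the 12 libraries are named (that of the microglia list is not reported here), with the 5 genes most like H2-Q4 and B2m, and further genes, such as the rest of those passing an adjusted p under 0.05, were chosen after their values were seen. Same-numbered libraries deviated together from the group means (r of 0.165 to 0.248 in the groups compared), so the replicate number was treated as a pair and used as a block in an alternative. Other alternatives were DESeq2 1.42.0, other scalings, filters and thresholds, and each library left out. Of 66 pairs of libraries, 0 had identical counts. Shared windows were searched in GENCODE transcripts.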

Additional observations from a re-analysis of the deposited data

Results flagged for a closer look

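The MG132 response of H2-D1 is listed because all 3 pairs of somas libraries went up and all 3 pairs of neurites libraries went down, an opposition that 2.07% of the 14185 genes tested showed in one direction or the other. The neurites value was -0.08 ± 0.27 on the log2 scale and turned positive without Ctrl neurites replicate 3 (0.12), without MG132 neurites replicate 1 (0.12) and with no count filter (0.05). The difference of the responses, neurites minus somas, was -0.62 on the log2 scale with a standard error of 0.39. This difference was not tested, since the genes were chosen on MG132 responses.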

How the results depend on the processing

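Of 550 alternative values for the 8 class I genes, 33 had the opposite sign, all of values whose main size was at most 0.36 on the log2 scale. Among tested values 3, all Tap1, newly passed the threshold. The untested H2-Q4 value with MG132 in somas, 1.85, was under 1.7 without Ctrl somas replicate 1 (1.61) and without MG132 somas replicate 3 (1.69). Another 4 untested values moved by more than the spread between replicates, H2-Q4 between neurites and somas on total counts (1.81 and 0.05) and Tap1 without Ctrl neurites replicate 3, below. On total counts 1 class I gene, Tap1, was called between neurites and somas in Ctrl and 1 in MG132 cultures, where the fit with TMM factors called 0, and at an adjusted p under 0.05 without a fold threshold 1 was called in MG132 cultures. Leaving out each library gave 0 to 1 calls in Ctrl cultures, the 1 being Tap1 without Ctrl neurites replicate 3, and 0 to 0 in MG132 cultures. Without that library the Tap1 value with MG132 in neurites went from 0.50 to 1.15 and its difference of responses from -0.11 to 0.54. For the pathway genes, requiring at least 10 counts in every library left 0 called higher and 0 lower in somas and 0 higher in neurites. Of the calls, 8 of 9 in somas and 5 of 7 in neurites were then not tested, while Rsad2 in somas (adjusted p of 0.0106, edgeR) and Icam1 in neurites (1.63) were tested and missed the threshold. At an adjusted p under 0.05 the counts were 25, 6, 21 and 11 (higher and lower in somas, higher and lower in neurites), and with a linear 1.7-fold threshold 15, 4 and 14 (the first 3 of these). The 25 and the 21 include Cxcl2 and Il6, and the 25 also H2-Q7, which were tested only because they were high with MG132. Leaving out each library gave 5 to 7 higher and 1 to 2 lower in somas, and 5 to 8 higher and 0 to 2 lower in neurites. The 1 gene called lower in neurites became 6 with DESeq2, 3 without a count filter, 0 with only the libraries compared, 3 on total counts and 6 with the replicate block. For the difference of the MG132 response, 0 became 1 with DESeq2 and 1 with the replicate block. Beside the calls named with the results, the block changed no other call. Where not said, the cause was not tested. Depth limits H2-T23, Tap2, H2-Q6, H2-Q7, Psmb9, Psme2, Ifit3b, Il6, Pirb and H2-Ab1, with libraries of 4 reads or fewer. Among the markers the same holds for P2ry12, Aif1, Pdgfrb, Lum and Flt1. It also holds for 3 of 7 pathway calls higher (Cxcl1, Cxcl2 and Mx2) and 2 of 2 lower (Mr1 and Traf1) in somas, and for the same 3 of 6 higher in neurites.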
